A study of Drosophila melanogaster with 11 samples.

Results

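In embryos laid by mothers whose germline had been depleted of Domino (DomKD embryos), 91 of the 17753 genes listed had RNA levels at least 2-fold above those of control (Ctrl) embryos, with no overlap between libraries. These DomKD-higher genes were chosen from the very values that are compared. Levels were expressed as CPM, the count of a gene per 1000000 counts in its library. A gene had to have a mean of at least 10 counts over the 7 embryo libraries, every DomKD CPM above every Ctrl CPM, and a mean DomKD CPM at least 2 times the mean Ctrl CPM. The difference between DomKD and Ctrl embryos is therefore described without a test. Of the 7727 genes past the count limit, 889 (11.5%) had every DomKD library above every Ctrl library, and the DomKD-higher genes were 1.18%. Under the mirror rule, 631 genes (8.17%) were at least 2-fold lower without overlap. A further 7 genes passed the 2-fold limit by their means, but their libraries overlapped.

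The RNA-seq libraries of Drosophila melanogaster fell into 3 groups. Ctrl embryos (3 libraries, replicates 2, 3 and 4) had the genotype label t180 and DomKD embryos (4 libraries) the label t216, both at stage 5 (nuclear cycle 14), when zygotic genome activation (ZGA) takes place. The third group held 4 libraries of unfertilized eggs with the genotype label t180, which the choice of genes did not use. DomKD mothers carried a UAS transgene for a short hairpin RNA against both isoforms of domino together with the germline driver mat-alpha-Gal4, and the control stock came from the same hairpin collection. Each genotype was represented by 1 cross, so an effect of the hairpin and a difference between the stocks cannot be told apart. Eggs of DomKD mothers were not analysed here. The number of animals per library and whether replicates were separate collections are not given, so p-values measure only the spread between these libraries. In whole embryos, fewer cells of a type and less RNA per cell cannot be told apart.

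Domino is the ATPase of a SWR1-type chromatin remodelling complex that places the histone variant H2A.Z in nucleosomes. The early embryo lives on RNA and protein that the mother loaded into the egg. During the maternal-to-zygotic transition much of this maternal RNA is degraded while the zygotic genome is switched on. A transcript found at stage 5 can thus be left over from the egg, newly made, or both. Its relative level in unfertilized eggs is a guide to the maternal supply. The eggs here carried the Ctrl genotype label, so they do not show what DomKD mothers supplied.

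The knocked-down gene dom was at 65.5, 73.6, 102 and 56.5 CPM in DomKD replicates 1 to 4. In Ctrl embryos it was at 2050, 1870 and 1940 CPM, and in eggs between 1320 and 1430 CPM. The knockdown or control label of all 7 embryo libraries was thus borne out, while dom does not check their stage. Library totals lay between 11809453 and 17700171 counts. Summed markers of later or foreign tissue were not raised in DomKD embryos: 12 genes of older embryos summed to 49.9–83.5 CPM against 71.2–89.2 CPM in Ctrl embryos, 11 neuronal genes to 58.9–81.0 against 90.8–111 CPM, 15 testis genes to 29.7–42.8 against 47.3–52.9 CPM, and 14 follicle cell genes to 0.438–4.26 against 0.92–18.5 CPM. Apart from follicle cells, each sum came mostly from a single gene that Ctrl embryos also expressed. Mean levels in DomKD and Ctrl embryos were 55.5 and 47.3 CPM for pros (older embryos), 56.4 and 57.3 CPM for Syx1A (neurons) and 28.2 and 37.0 CPM for bam (testis). Sums led by such genes cannot show whether older or foreign tissue was present. Of these 4 lists, only Appl was a DomKD-higher gene. The defining neuronal genes nSyb, brp and para had at most 8, 5 and 5 counts in any library.

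Most DomKD-higher genes were rare transcripts in Ctrl embryos. Their median Ctrl level was 1.35 CPM, against 41.6 CPM over all genes past the count limit, and in DomKD embryos the medians were 4.31 and 39.8 CPM. A mean of few counts moves easily across a 2-fold limit. What the count limit and the 2-fold limit add to these low levels was not tested. In 33 of the genes the mean count was below 30, and 31 had a mean of at least 100 counts. The ratio of mean DomKD to mean Ctrl CPM had a median of 2.55, where all genes past the limit had 0.962. It lay between 2 and 3 for 58 genes, between 3 and 5 for 24 and above 5 for 9. One gene, Dscam4, stood apart with a ratio of 165, and the next was at 10.1. Summed over the 91 genes, DomKD embryos had 1524, 1556, 1387 and 1552 CPM and Ctrl embryos 595.6, 615.4 and 596.6 CPM. The 5 genes with the most counts supplied 40.3% of the DomKD sum.

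At the 2-fold limit the set had no natural edge. Just inside it were Eip75B (ratio 2.04), Marc (2.03) and ZnT41F (2.01), and just outside were rdgA (1.98), CG40439 (1.97) and esn (1.97).

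The choice was repeated without 1 library. The genes were then still chosen on the libraries of the other group, against which the left-out library is placed, so the shares describe the set and are no independent support for it. When DomKD replicate 1 was left out, 88 genes were chosen on the other 6 libraries, and in replicate 1 itself 85 of them (96.6%) were above every Ctrl library, against 29.0% of all genes past the limit. For DomKD replicates 2, 3 and 4 the shares were 87 of 89 (97.8%), 94 of 99 (94.9%) and 87 of 91 (95.6%), against 25.1%, 21.2% and 28.6% of all genes. A left-out Ctrl library lay below every DomKD library in 87 of 95 genes (91.6%) for replicate 2, in 91 of 99 (91.9%) for replicate 3 and in 86 of 97 (88.7%) for replicate 4, against 22%, 23.5% and 29.0% of all genes. The median fold in the left-out library was 2.28 to 2.59, with the lowest in DomKD replicate 3. That library was the lowest of the DomKD libraries in 40 of the 91 genes, against 15 to 20 for the others, and it also kept the most dom RNA. No link between these values was tested.

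**Figure D1:**
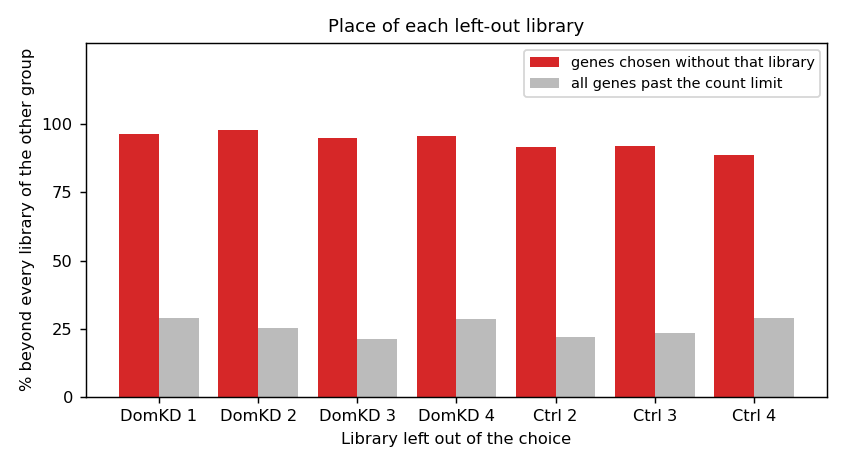
Share of genes (%, vertical axis) whose level in the left-out library lay beyond every library of the other group, for each of the 7 embryo libraries left out in turn (horizontal axis). Red bars are the genes chosen without that library and stand at 88.7% to 97.8%, and grey bars are all genes past the count limit, not chosen in any way, and stand at 21.2% to 29.0%.

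Dscam4 (FBgn0263219, chromosome 3L, 8238647 to 8282398, plus strand, dm6 coordinates) encodes a cell adhesion molecule of the immunoglobulin superfamily, in the family of the Down syndrome cell adhesion molecule. It was at 14.1, 19.0, 21.6 and 21.3 CPM in the DomKD libraries. The 3 Ctrl libraries held 1, 3 and 1 counts and the 4 egg libraries none. With Ctrl embryos set at the floor of 3 counts per library, DomKD embryos were at least 91.1-fold higher, and against eggs at least 104-fold higher. Ctrl embryos and eggs were both at the floor, so no fold is given between them. The other 30 neural recognition genes past the count limit did not share this pattern: the median ratio of all 31 was 0.599, 15 of them (48.4%, against 23.3% of all genes past the limit) had every DomKD library below every Ctrl library, and only Dscam4 and DIP-lambda were DomKD-higher genes. Dscam1 had a ratio of 0.814 and Dscam2 of 0.362.

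**Figure D2:**
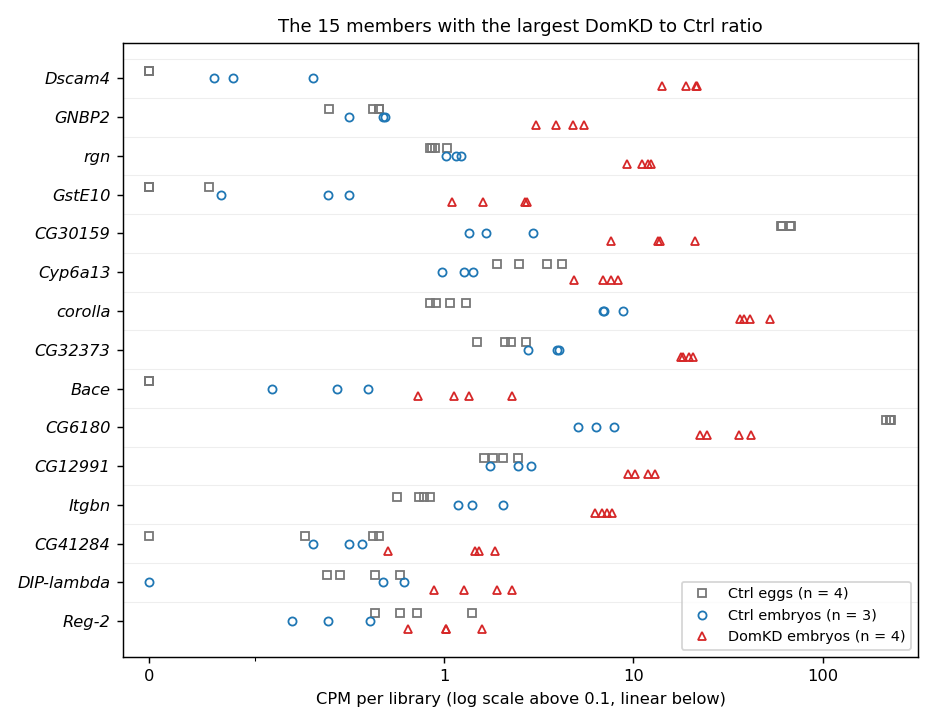
CPM in each library (horizontal axis, logarithmic above 0.1 CPM and linear below) for the 15 DomKD-higher genes with the largest ratios, in order of ratio from the top. Red triangles are DomKD embryos (n = 4), blue circles Ctrl embryos (n = 3) and grey squares unfertilized eggs (n = 4). Egg levels lay near or below the Ctrl embryos for most of these genes, but above the DomKD embryos for CG30159 and CG6180.

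Other proteins of the nervous system were among the DomKD-higher genes, and none of the 8 assigned to this group was maternally deposited. A gene counted as maternally deposited if 3 or more of the 4 egg libraries had over 5 TPM of it, where TPM is a level per exon length and library. Bace, an aspartyl protease related to the beta-secretase that cuts the amyloid precursor protein, was at 1.13, 2.29, 1.35 and 0.731 CPM in DomKD embryos and at 0.123, 0.273 and 0.395 CPM in Ctrl embryos. It had no count in any egg library. Appl, the fly homologue of that precursor, was at 2.50, 1.97, 1.61 and 2.26 CPM in DomKD embryos against 0.797, 1.09 and 0.949 CPM in Ctrl embryos. Unlike Bace, it was present in eggs at 2.92 to 3.39 CPM, above Ctrl embryos in every library.

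DIP-lambda, a member of the Dpr-interacting immunoglobulin proteins of neurons, was at 0.887, 1.27, 2.29 and 1.90 CPM in DomKD embryos. Ctrl replicate 4 had no count and the other Ctrl libraries were at 0.613 and 0.477 CPM, so its ratio of 4.37 rests on at most 10 Ctrl counts per library. Dh31, which encodes a diuretic hormone neuropeptide, had a mean of 3.02 CPM in DomKD and 1.29 CPM in Ctrl embryos. Its lowest DomKD library (1.68 CPM) was barely above its highest Ctrl library (1.58 CPM). Arc1, a Gag-related protein that forms capsids and carries RNA between cells at the synapse, was more abundant, with 46.2 to 69.8 CPM in DomKD and 12.7 to 32.9 CPM in Ctrl embryos. Its Ctrl libraries differed 2.59-fold among themselves. The last of the group were mtg (mind the gap, a secreted protein of the synaptic cleft) with a ratio of 2.83 and Liprin-gamma with a ratio of 2.65.

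Detoxification enzymes supplied 5 DomKD-higher genes, of which 3 are glutathione S-transferases, enzymes that couple glutathione to reactive compounds. GstE10 was at 2.74, 2.67, 1.10 and 1.61 CPM in DomKD embryos and at 0.245, 0.0682 and 0.316 CPM in Ctrl embryos, a ratio of 9.67 at no more than 42 counts per library. GstD8 (ratio 3.48) and GstE3 (ratio 2.84) were as rare, with 8 to 31 counts in each DomKD library. Cyp6a13, a cytochrome P450, was at 8.31, 7.57, 4.83 and 6.94 CPM in DomKD embryos, 0.981, 1.43 and 1.27 CPM in Ctrl embryos and 4.22, 3.48, 2.49 and 1.91 CPM in eggs. Every egg library lay between the embryo groups. Ugt50B3, a UDP-glycosyltransferase, had a ratio of 2.07 and was the only maternally deposited gene of the 5, with 29.5 TPM ± 5.21 (SD, n = 4) in eggs.

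Of 157 genes whose symbols begin with Cyp, Gst or Ugt, 56 passed the count limit, and the median ratio of these was 1.03. The 5 DomKD-higher genes were 8.93% of the 56, where 1.18% of all genes past the limit met the rule. All DomKD libraries were above all Ctrl libraries in 9 of the 56 (16.1%, against 11.5% of all genes) and below in 13 (23.2%, against 23.3%). Among those below, GstT3 was at 18.8 against 53.6 CPM and Cyp6d4 at 6.71 against 23.4 CPM. A few of the 56, such as Cyp1 and Cyp40, are cyclophilins that only share the prefix.

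Germline and meiosis genes were represented by corolla, bol and egl. The product of corolla is part of the central region of the synaptonemal complex, which holds paired chromosomes together in meiosis. It was at 52.7, 38.3, 36.4 and 41.0 CPM in DomKD embryos, 6.99, 6.88 and 8.78 CPM in Ctrl embryos and 0.839 to 1.30 CPM in eggs. Of 17 meiosis genes past the count limit, corolla was the only DomKD-higher gene. The median ratio of the 17 was 0.931. The c(3)G gene, whose product spans the same complex, was next at 1.68, while rec (0.168) and narya (0.268) were far lower in DomKD embryos. The RNA-binding protein gene bol, needed for meiosis in the male germline, was at 9.82 to 12.7 CPM in DomKD embryos against 2.86 to 5.09 CPM in Ctrl embryos. The third gene, egl, encodes an adaptor that links localized mRNAs to the dynein motor in the oocyte and embryo. It was at 81.5 to 112 CPM in DomKD embryos and 37.7 to 54.0 CPM in Ctrl embryos, but at 298 to 335 CPM in eggs.

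Among cell surface and secreted proteins, GNBP2 and rgn had the second and the third largest ratios. GNBP2 belongs to the family of Gram-negative bacteria binding proteins. It was at 5.48, 4.77, 3.90 and 3.07 CPM in DomKD embryos and at 0.490, 0.477 and 0.316 CPM in Ctrl embryos, and eggs (0.247 to 0.455 CPM) were as low. The C-type lectin gene rgn (regeneration) had 149, 174, 109 and 168 counts in DomKD embryos, 20, 17 and 13 in Ctrl embryos and 16, 15, 15 and 14 in eggs. Scaled to depth, these were 11.1 CPM ± 1.38 (SD, n = 4), 1.14 ± 0.101 (SD, n = 3) and 0.913 CPM, so that eggs were again close to Ctrl embryos. Itgbn, the nu subunit of the integrin beta chains, was at 6.29 to 7.67 CPM in DomKD embryos, 1.19 to 2.04 CPM in Ctrl embryos and 0.565 to 0.839 CPM in eggs. The neprilysin-like peptidase gene Nepl4 had a ratio of 2.26 at higher levels, with 18.4 to 40.0 CPM against 8.89 to 18.2 CPM, and no count in eggs. The tetraspanins Tsp33B and Tsp42Ef had ratios of 2.05 and 2.46. They were unlike in eggs, where Tsp33B had no count and Tsp42Ef was at 135 TPM ± 4.24 (SD, n = 4).

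Signalling and polarity genes (7 genes) had ratios of 2.22 to 3.84. RhoGEF64C was the largest of these. It was at 36.5, 53, 36.6 and 38.6 CPM in DomKD embryos, 10.1, 12.1 and 9.97 CPM in Ctrl embryos and 1.73 to 2.58 CPM in eggs. Dhit, a regulator of G protein signalling, was at 39.9 to 48.2 CPM in DomKD and 13.7 to 18.7 CPM in Ctrl embryos. The group also held daw, an activin-like ligand (ratio 2.22), pk, the planar polarity gene prickle (2.31), the phosphodiesterase gene Pde6 (2.63), CAP (2.53) and Rab27, a small GTPase of secretory vesicles (2.75).

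Of the transcription factors, 4 were DomKD-higher genes, all with ratios near the limit. They were inv (2.28), the homeobox neighbour of engrailed, sens (2.22), a zinc finger factor of sensory organ precursors, and the ecdysone response genes br (2.18) and Eip75B (2.04). The sens RNA was at 3.71, 4.33, 3.98 and 3.73 CPM in DomKD embryos and 1.72, 2.66 and 0.949 CPM in Ctrl embryos, with no count in eggs. None of the 24 zygotic patterning factors listed, all of which passed the count limit, was a DomKD-higher gene, and their median ratio was 1.09. They did not move together. All DomKD libraries were above all Ctrl libraries in 3 of them (12.5%, against 11.5% of all genes), namely zen (ratio 1.59), tll (1.44) and hb (1.32). They were below in 4 (16.7%, against 23.3%), namely pnr (0.27), gsb (0.324), tup (0.459) and wg (0.594). Whether DomKD and Ctrl embryos differed in age within stage 5 was not tested.

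Metabolic enzymes and membrane transporters made up 12 of the 91 genes, and 7 of these were maternally deposited, where 81.2% of all genes past the count limit were. They included Aldh, a mitochondrial aldehyde dehydrogenase, AcCoAS, which makes acetyl-CoA from acetate, FASN1, a fatty acid synthase, UGP, which makes UDP-glucose, Pex11ab, a factor of peroxisome division, LManII, a lysosomal mannosidase, and arg, an arginase. The transporters were Mct1 for monocarboxylates, Fatp1 for fatty acids, and Zip89B and ZnT41F for zinc. Their ratios lay between 2.01 and 3.69. Aldh was at 35.2 CPM ± 4.49 (SD, n = 4) in DomKD embryos and at 9.63, 13.4 and 9.89 CPM in Ctrl embryos. In eggs it was at 432 to 451 CPM, far above both embryo groups. Pex11ab was at 7.28 to 7.67 CPM in DomKD embryos, 2.27 to 2.66 CPM in Ctrl embryos and 76.4 to 82.7 CPM in eggs. UGP was at 72.9 to 103 CPM in DomKD and 34.9 to 45.6 CPM in Ctrl embryos, with 281 to 298 CPM in eggs.

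The largest group had no name beyond a CG number, with 31 genes. CG30159 was at 21.1, 13.5, 7.62 and 13.8 CPM in DomKD embryos, 2.94, 1.36 and 1.66 CPM in Ctrl embryos and 64.1 CPM on average in eggs. CG32373 was at 17.8 to 20.7 CPM in DomKD embryos, 2.76 to 4.03 CPM in Ctrl embryos and 1.49 to 2.72 CPM in eggs. CG12991 was similar, with 9.40 to 13.0 CPM, 1.74 to 2.88 CPM and 1.62 to 2.47 CPM. In CG30159 the eggs thus lay above the DomKD embryos, and in the other two they lay near the Ctrl embryos. Per exon length, CG30440 and CG15480 were the most abundant of the 91 in DomKD embryos, at mean levels of 127 and 112 TPM, with 58.8 and 54.0 TPM in Ctrl embryos. CG30440 was at 34.1 TPM in eggs, whereas CG15480 had no count in any egg library. Of the 91 genes, 86 were protein-coding and 5 were non-coding RNAs (3.30% of genes past the limit were), and 4 of these 5 were at the floor in eggs.

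Egg levels divided the 91 genes into 3 groups. In total 25 (27.5%) were maternally deposited, where 81.2% of all genes past the count limit were. Another 22 (24.2%, against 10.1% of all genes) had at most 3 counts in each egg library, and 13 of them had none. The remaining 44 (48.4%, against 8.72%) lay between. The 91 genes were low in Ctrl embryos, and genes at such levels were less often maternally deposited. Between the quartiles of the Ctrl levels of the 91 (0.658 to 5.66 CPM), 10 of 45 DomKD-higher genes (22.2%) were maternally deposited, against 33.8% of 1402 genes. Levels within this range were not matched. The median egg level was 0.689 TPM for the 91 genes and 60.8 TPM for all genes past the limit. Metabolic enzymes had the highest median in eggs (63.8 TPM over 8 genes), while neural proteins had 0.364 TPM and transcription factors 0.0362 TPM.

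**Figure D3:**
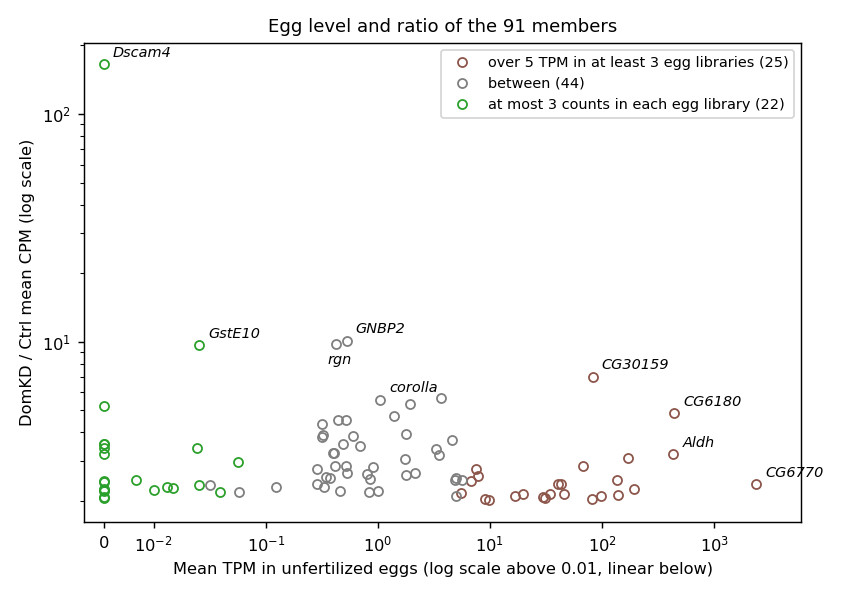
Mean level in unfertilized eggs (TPM, horizontal axis, logarithmic above 0.01 and linear below) and ratio of mean DomKD to mean Ctrl CPM (vertical axis, logarithmic) for each of the 91 genes. Colours mark the 25 maternally deposited genes, the 22 with at most 3 counts in each egg library and the 44 between, and large ratios occur in all 3, from Dscam4 (165) through GNBP2 (10.1) to CG30159 (7.03).

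The egg libraries were not part of the choice, so each embryo group was tested against them in edgeR over 7859 genes, with adjusted p below 0.05 as the threshold. Since the rule took genes that are low in Ctrl and high in DomKD embryos, only a higher call in Ctrl embryos or a lower call in DomKD embryos goes against it. Both comparisons share the same egg libraries, which carried the Ctrl genotype label. DomKD embryos thus differ from these eggs in genotype besides fertilization and stage, while Ctrl embryos share their genotype label. In Ctrl embryos 41 of the 91 genes (45.1%) were higher than in eggs, where 47.8% of all genes tested were, and 29 (31.9%) were lower, where 38.0% of all were. In DomKD embryos 67 (73.6%) were higher, where 49.1% of all genes were, and 16 (17.6%) were lower, where 38.6% were. The shares in Ctrl embryos were thus near or below the background.

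Some genes, such as corolla, were higher than in eggs in both embryo groups. For corolla the log2 fold change from eggs was 2.85 (standard error 0.21, adjusted p = 2.49e-08 in edgeR) in Ctrl embryos and 5.40 (0.18, adjusted p = 4.78e-12 in edgeR) in DomKD embryos. For RhoGEF64C these values were 2.28 (0.19, adjusted p = 8.33e-08) and 4.30 (0.17, adjusted p = 2.78e-11 in edgeR). Nepl4, with no egg counts, was at least 72.2-fold above eggs in Ctrl and at least 163-fold in DomKD embryos, with eggs set at the floor, and CG15480 was at least 207-fold above eggs in DomKD embryos. For rgn and GNBP2 the log2 differences between Ctrl embryos and eggs, 0.32 (standard error 0.21, adjusted p = 0.263 in edgeR) and 0.13 (0.40, adjusted p = 0.773 in edgeR), did not pass the threshold. In DomKD embryos both were higher than in eggs, by 3.67 (0.16, adjusted p = 6.97e-11) and 3.49 (0.27, adjusted p = 4.09e-08 in edgeR). The call of a higher level in Ctrl embryos for Dscam4 (adjusted p = 0.0142 in edgeR) rests on 5 counts in 3 libraries and was lost without Ctrl replicate 3 (adjusted p = 0.0646). That of GstE10 (0.0139) was lost without Ctrl replicate 4 (0.0503).

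The 25 maternally deposited genes mostly lay below their egg level in both embryo groups. In Ctrl embryos 20 of them (80.0%) were lower than in eggs, where 45.5% of all 6323 maternally deposited genes tested were. A further 3 were higher, where 40.4% of all such genes were, and 2 were without a call. In DomKD embryos 15 were lower (60.0%, against 45.7%), 7 higher (28.0%, against 42.7%) and 3 without a call. Their median log2 fold change from eggs was -2.41 in Ctrl and -1.29 in DomKD embryos, while all maternally deposited genes tested had -0.06 and -0.05. In 16 of the 25 the mean DomKD level lay between the Ctrl and the egg level, and in 9 it lay above the eggs. In Ctrl embryos 10 of them had less than 10% of the egg CPM, and in DomKD embryos 6 had. These 25 genes were taken as above a limit in eggs and, by the rule, as low in Ctrl embryos. Lower calls in Ctrl embryos and DomKD levels between Ctrl and eggs are thus partly built in. The 6323 genes they stand beside were not chosen to be low in Ctrl embryos.

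CG6770 was the most abundant of the 91 genes in eggs, with a mean of 2370 TPM. It was at 887 to 949 CPM in eggs, 10.4 to 14.3 CPM in Ctrl embryos and 28.6, 39.9, 22.9 and 31.3 CPM in DomKD embryos. Its log2 fold change from eggs was -6.14 (standard error 0.18, adjusted p = 2.90e-12 in edgeR) in Ctrl embryos and -4.82 (0.14, adjusted p = 1.95e-12 in edgeR) in DomKD embryos. The embryo groups did not overlap, yet both were far below the eggs. CG6180 was at 216 to 228 CPM in eggs, 7.85, 5.11 and 6.33 CPM in Ctrl embryos and 24.3, 22.5, 36.2 and 41.9 CPM in DomKD embryos. For Aldh the log2 fold change from eggs was -5.34 (standard error 0.14, adjusted p = 1.15e-12) in Ctrl and -3.59 (0.11, adjusted p = 2.10e-12 in edgeR) in DomKD embryos. Tsp42Ef stood lowest relative to eggs, at -6.66 (0.17, adjusted p = 1.21e-12) and -5.29 (0.13, adjusted p = 5.08e-13 in edgeR). CG9547, CG3603 and Pex11ab also lay below 10% of their egg CPM in both embryo groups.

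Other maternally deposited genes were closer to the egg level. The translation factor gene eIF6 was at 46.0 to 55.1 CPM in eggs, 18.7 to 19.3 CPM in Ctrl embryos and 37.3 to 42.8 CPM in DomKD embryos. AcCoAS was at 71.1 to 87.0 CPM in eggs, 22.7 to 34.1 CPM in Ctrl embryos and 46.4 to 71.4 CPM in DomKD embryos. Their DomKD levels were lower than in eggs by small amounts, with log2 fold changes of -0.29 (standard error 0.07, adjusted p = 0.00185) and -0.39 (0.13, adjusted p = 0.00999 in edgeR). Mct1 and FASN1 did not meet the maternal limit, with means of 4.61 and 4.85 TPM in eggs. The log2 difference from eggs for Mct1 was 0.10 (0.18, adjusted p = 0.619 in edgeR) in DomKD embryos, where Ctrl embryos were lower than eggs by -1.85 (0.23, adjusted p = 4.08e-06). FASN1 had -0.05 (0.22, adjusted p = 0.837) in DomKD and -1.42 (0.26, adjusted p = 0.000169 in edgeR) in Ctrl embryos. A missing call does not show that DomKD embryos and eggs were alike.

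**Figure D4:**
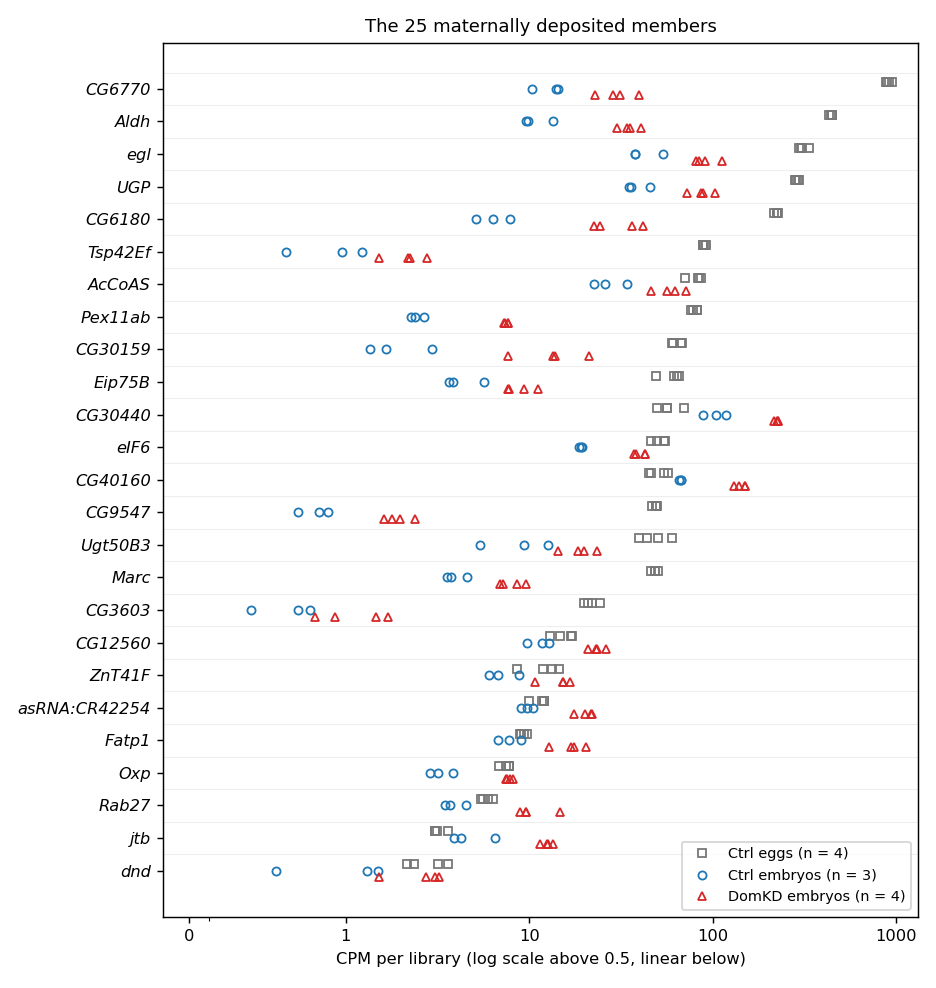
CPM in each library (horizontal axis, logarithmic above 0.5 CPM and linear below) for the 25 maternally deposited DomKD-higher genes, ordered by mean egg CPM. Grey squares are unfertilized eggs (n = 4), blue circles Ctrl embryos (n = 3) and red triangles DomKD embryos (n = 4). In the genes at the top, such as CG6770 and Aldh, both embryo groups lie far below the eggs, while in CG30440, CG40160 and jtb they lie above them.

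CG30440, CG40160 and jtb went the other way and were higher than eggs in both embryo groups. For jtb the log2 fold changes were 0.60 (standard error 0.18, adjusted p = 0.00794 in edgeR) in Ctrl and 2.03 (0.16, adjusted p = 5.14e-08 in edgeR) in DomKD embryos. CG30440 was at 49.8 to 69.8 CPM in eggs, 88.4, 105 and 119 CPM in Ctrl embryos and 229, 229, 216 and 224 CPM in DomKD embryos, with log2 fold changes of 0.84 (standard error 0.11, adjusted p = 9.68e-06) and 2.01 (0.11, adjusted p = 6.34e-10 in edgeR). CG40160 was at 45.2 to 56.9, 65.8 to 67.6 and 131 to 151 CPM, with log2 fold changes of 0.39 (0.08, adjusted p = 0.000627) and 1.56 (0.08, adjusted p = 3.74e-10 in edgeR). In Cyp6a13 the groups fell on either side of the eggs. Ctrl embryos were lower, at a log2 value of -1.31 (standard error 0.31, adjusted p = 0.00152), and DomKD embryos higher by 1.26 (0.24, adjusted p = 0.000203 in edgeR).

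By position, the 91 genes were spread over 5 chromosome arms. Arm 2R held 29 (31.9%, against 20.0% of genes past the limit), 3L 21 (23.1% against 19.5%), 2L 20 (22% against 17.6%), X 12 (13.2% against 17.2%) and 3R 9 (9.89% against 23.9%), with none on chromosome 4. Within 5 Mb of a centromere lay 7 genes (7.69%, against 7.35%). The genes were long, with a median span of 5012 nt against 2728 nt. An annotated transposable element lay inside the span of 21 of them (23.1%, against 8.20% of genes past the limit). Most of these were long genes: 17 of the 21 genes over 20 kb held one (81.0%, against 47.5%), 4 of the 25 between 5 and 20 kb (16.0% against 13.6%), and none of the 45 shorter ones (1.80% of all).

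In 7 places 2 DomKD-higher genes lay within 10 kb of each other. How often genes past the limit lie this close was not counted, so the number does not show clustering. Bace lies within the span of Dh31 on the same strand, and what unspliced Dh31 RNA added to the Bace counts was not tested. Mur2B, a mucin-related gene, and br overlap on opposite strands. CG30440 and Ugt50B3 are 813 nt apart on chromosome 2R. GstE10 and GstE3 are 2194 nt apart, and within their joint span GstE1, which overlaps GstE10, had a ratio of 0.964. The joint span of arg and Appl (2473 nt apart) holds CG4293, which overlaps arg and had a ratio of 1.10. Within the joint span of hebe and Marc (3134 nt apart) CG1663 had a ratio of 0.300. Within that of CG44004 and Eip75B (7666 nt apart) CG44005 had 1.49. Other genes past the count limit that lay within these joint spans thus did not reach the 2-fold limit.

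Exons of 20 DomKD-higher genes overlap a gene on the opposite strand and those of 5 a gene on the same strand. The share of all genes past the limit with such overlaps was not counted. The libraries were stranded, but whether counting used the strand is not given, so these genes are uncertain. For several genes with large ratios the partner had a ratio near or below 1. The rgn gene overlaps barc (ratio 0.981 at 61.8 CPM in Ctrl embryos), GstE10 overlaps GstE1, CG6180 overlaps CG15484 (0.757) and Itgbn overlaps CG9265 (0.668). CG30159 shares strand and exon sequence with Tsp42Ea, which had no count in any embryo library. The arg gene overlaps elav on the opposite strand, and elav was at 9.90 CPM in DomKD against 38.0 CPM in Ctrl embryos, the opposite direction. Dhit overlaps asRNA:CR45270, which had a ratio of 1.52, and CAP overlaps CG12910, which had one of 2.45 at 0.0672 CPM in Ctrl embryos. What partners added to the counts was not tested. For Mur2B and br the partner was itself a DomKD-higher gene, and the 2 cannot be told apart without strand.

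Other lists held none of the 91 genes. These were heat shock proteins (7 of 19 past the count limit, median ratio 1.25), apoptosis and DNA damage genes (10 of 12, 1.02), immune effectors (1 of 35, 0.959), germ plasm genes (9 of 9, 0.990) and histones (7 of 116, 1.08). Of the histone genes, 104 had no count in any library. With so few genes past the limit, the histone and immune lists say little about those families. Marker genes of fly transgenes differed little or were rare. The w gene had a ratio of 1.22 and y of 1.21. The groups did not overlap for w, with 142 to 157 CPM in DomKD and 119 to 129 CPM in Ctrl embryos. All DomKD libraries were above all Ctrl libraries in 11.5% of all genes past the limit. The v gene had no count in Ctrl embryos and at most 5 counts in any DomKD library.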

How the data were processed

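Total RNA of the 11 libraries was made into Illumina TruSeq Stranded Total RNA libraries. The authors trimmed and mapped the reads to dm6 with snakePipes 2.0.2 and counted them with featureCounts on Ensembl release 96. The table deposited by the authors holds unnormalized read counts and exon lengths. Aligner, strand setting and treatment of multi-mapping reads are not given in the sources used here. The table held 1 further column of no listed sample, which was not used. Depth was 11809453 to 17700171 counts, so a gene at 10 counts has a large counting error.

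CPM, TPM and ratios were computed from the counts, with a floor of 3 counts per library. Eggs were compared with each embryo group in edgeR 4.0.16 (quasi-likelihood, TMM, Benjamini-Hochberg over all genes tested) in R 4.3.3, in 1 fit of all 11 libraries over genes whose mean count reached 10 in embryos or eggs, after the code was tested on simulated data. DESeq2 1.42.0, other scalings, filters and limits, a replicate block and each library left out were alternatives. Names and positions come from Ensembl release 115, which names 17626 of the 17753 genes. Same-group libraries differed by more than counting noise, so none was merged.

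Genes named by rule were the 15 largest ratios, the 10 highest in DomKD CPM and in egg TPM, the 3 on each side of the fold limit, those on the gene lists and those within 10 kb of another. All others, and the role groups, were chosen after their values were seen. The genes and lists were chosen with earlier results of these data known. Figures were drawn with matplotlib 3.10.9.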

Additional observations from a re-analysis of the deposited data

Results flagged for a closer look

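In 82 groups of 4 libraries (named genes in eggs by TPM and in DomKD embryos by CPM) a library far from the other 3 was looked for, and 5 were found. For continuous values 1 in 20, or 4.1, would be so by chance. A lone count beside 3 libraries with none is always found, so this share does not apply there. In DomKD replicate 2, RhoGEF64C was at 53 CPM, with the others at 36.5 to 38.6 CPM. In egg replicate 1, rgn was at 0.482 TPM (16 counts, with 14 or 15 in the others) and br at 0.0729 TPM (11 counts, with 8 or 9 in the others). GstE10 in egg replicate 3 (0.102 TPM) and Dh31 in egg replicate 1 (0.101 TPM) each had 1 count where the other eggs had none. Apart from RhoGEF64C, these distances amount to 1 to 3 counts.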

How the results depend on the processing

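The number of genes depended on the limits. A mean of at least 30 counts gave 58 genes, of at least 100 counts 31, and no count limit 188. A fold limit of 1.5 gave 204 genes and of 3 gave 33. TMM scaling and DESeq2 size factors each gave 96 genes, which held all 91, and leaving out 1 embryo library gave 88 to 99 genes, of which 80 to 90 were among the 91. Maternally deposited genes numbered 39 with a limit of 1 TPM and 19 with 10 TPM, in place of 25. With at least 100 counts, which leaves fewer genes, 14 were higher than eggs in Ctrl and 20 in DomKD embryos, where 3061 and 3184 of all genes were. With only the compared groups in the fit, 29 were higher in Ctrl embryos in place of 41. In all, 72 of 80 counts stayed within 1.5 times, and of 1011 values of single genes none changed direction and 5 lost the threshold: besides Dscam4 and GstE10, that of Reg-2 in Ctrl embryos (adjusted p between 0.0515 and 0.0634 in edgeR) without Ctrl replicate 2, Ctrl replicate 4 or egg replicate 3. Replicate numbers did not pair the libraries (correlations of deviations between -0.344 and 0.0542 over the 3 pairs of groups). With a replicate block 29 genes were higher and 28 lower than eggs in Ctrl embryos, and 68 higher and 16 lower in DomKD embryos. For this fit and the fit of only the compared groups, counts over all genes are not given here. Their numbers can thus not be set against a background. Depth limits the 33 of the 91 genes that have a mean under 30 counts.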
